A study of Mus musculus with 12 samples.

Results

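Nucleosome calls were examined over 44 mouse genes of the sperm flagellum and its axoneme. The genes were named from what their proteins are known to do, with earlier results of these data known, and all 44 were found among the 21887 protein-coding genes that a RefSeq table of GRCm38.p6 places on 21 chromosomes. A call belonged to a gene when its midpoint lay in the gene body or in the 1000 bp on either side. In that window the 44 genes held 558 calls, 411 from round spermatids and 147 from a fraction called M below. The list comprised 4 outer arm and 10 inner arm dynein heavy chains, 2 dynein intermediate chains, 4 central apparatus proteins, 3 radial spoke proteins, 3 nexin link and ruler proteins, 5 tektins, 5 proteins of the outer dense fibres and fibrous sheath, and 8 assembly and Cfap proteins.

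MNase-seq was done on 12 samples of germ cells from SV129 mice aged 8 to 12 weeks. Micrococcal nuclease (MNase) cuts the linker DNA between nucleosomes, so that the DNA it leaves intact marks where histones were bound. One stage was a round spermatid fraction (RS), digested with 0.5, 1 or 2 U of MNase, and the other a fraction (M) digested with the same amounts, with 2 samples for each stage and amount. The labels title M a meiotic spermatid fraction and their protocol calls it meiotic, so whether it held spermatocytes or also spermatids is not settled by them. Testes of 11 mice were pooled for each sedimentation, the fractions had a purity of at least 85%, and digestion lasted 7.5 min at 37 °C. RS digests contained 2 times as many cells as M digests. The authors called nucleosomes once per group from both samples together, which leaves 1 list for each stage and amount, 6 lists in all, and no replicate error. Differences were therefore not tested, the 3 amounts are not replicates, and the 95% intervals given with the counts cover counting error only. Neighbouring calls overlap, which makes those intervals too narrow. The lists hold no expression values, and the identity of the fractions was not checked against marker genes. In such mixed preparations, a change within the cells and a change in the share of other cells cannot be told apart.

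The sperm flagellum beats because dynein motors slide the outer microtubule doublets of the axoneme against each other. Outer arm dyneins supply most of the power and inner arm dyneins shape the bend. The central apparatus and the radial spokes regulate the motors, the nexin links hold the doublets together, a ruler complex sets the spacing of spokes and inner arms, and tektins line the doublets. Outer dense fibres and a fibrous sheath surround the axoneme in mammals. Most of these genes are switched on in late spermatocytes and round spermatids, before the flagellum is built. Among the outer arm heavy chains of the list, Dnah17 is known from the sperm flagellum, whereas Dnah5, Dnah9 and Dnah11 are known from motile cilia of the airways and the embryonic node.

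Promoters were the place where single calls could be set against sequence. Of the 44 genes, 39 matched a RefSeq promoter window of 300 bases, from 250 before to 50 after the transcription start, in GRCm38.p6. RS calls had their midpoint in the window of 1 gene (2.56% of 39, against 2.85% of 17492 protein-coding genes with a window), namely Tekt5. M calls did so in 3 genes (7.69%, against 3.06% of all), namely Tekt1, Ccdc39 and Dnah7a. Over all 6 lists, 4 of 39 windows (10.3%) and 970 of 17492 windows (5.55%) held a call. These 4 windows are printed 5′ to 3′ because they show where the calls lay relative to the start, with the bases under any call in capitals.
Tekt1, chr11:72361833-72362132, minus strand: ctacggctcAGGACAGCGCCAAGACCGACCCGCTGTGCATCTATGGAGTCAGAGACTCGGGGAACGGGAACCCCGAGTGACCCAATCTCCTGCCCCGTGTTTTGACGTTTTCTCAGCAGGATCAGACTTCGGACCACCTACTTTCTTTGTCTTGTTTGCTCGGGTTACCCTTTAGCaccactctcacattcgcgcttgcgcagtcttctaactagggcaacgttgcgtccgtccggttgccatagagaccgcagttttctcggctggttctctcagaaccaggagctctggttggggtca
Ccdc39, chr3:33844261-33844560, minus strand: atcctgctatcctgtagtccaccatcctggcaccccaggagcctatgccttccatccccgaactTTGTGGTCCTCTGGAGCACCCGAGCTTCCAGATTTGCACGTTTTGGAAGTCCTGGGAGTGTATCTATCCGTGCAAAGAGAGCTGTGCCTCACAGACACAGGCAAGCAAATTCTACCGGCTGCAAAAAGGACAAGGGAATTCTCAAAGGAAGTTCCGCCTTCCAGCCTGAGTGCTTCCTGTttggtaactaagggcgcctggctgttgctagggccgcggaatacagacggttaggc
Dnah7a, chr1:53706735-53707034, minus strand: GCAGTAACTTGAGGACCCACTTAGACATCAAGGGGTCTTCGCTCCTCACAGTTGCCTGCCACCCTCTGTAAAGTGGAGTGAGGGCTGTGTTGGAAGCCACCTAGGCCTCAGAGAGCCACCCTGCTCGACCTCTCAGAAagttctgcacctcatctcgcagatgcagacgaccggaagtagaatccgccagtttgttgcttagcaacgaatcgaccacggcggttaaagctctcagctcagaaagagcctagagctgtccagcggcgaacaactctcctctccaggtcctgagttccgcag
Tekt5, chr16:10395406-10395705, minus strand: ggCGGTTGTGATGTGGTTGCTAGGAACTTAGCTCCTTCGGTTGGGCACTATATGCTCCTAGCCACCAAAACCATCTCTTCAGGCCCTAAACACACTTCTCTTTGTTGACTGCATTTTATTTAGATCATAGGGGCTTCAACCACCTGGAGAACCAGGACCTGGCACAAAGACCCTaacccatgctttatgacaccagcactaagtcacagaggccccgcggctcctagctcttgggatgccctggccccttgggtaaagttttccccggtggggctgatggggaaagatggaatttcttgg
Tekt1 encodes a tektin, a filament of the doublet wall. Its called stretch came from 2 calls at 1 U and 1 call at 2 U in M, with midpoints 145 and 172 bases before the more upstream of its 2 RefSeq starts, and covered 167 bases. Ccdc39, part of the ruler complex, was covered by 2 calls of M at 1 U with midpoints 77 and 117 bases before the start. Dnah7a, an inner arm heavy chain, was covered by 2 calls of M at 2 U with midpoints 183 and 208 bases before the start. Tekt5, a tektin of the sperm flagellum, was covered by 2 calls of RS at 0.5 U with midpoints 147 and 179 bases before the start. In all 4 windows the midpoints were upstream of the start. The windows reach 250 bases before the start and 50 after it, so most places for a midpoint in them are upstream. The called bases had a GC content of 48.3% in Tekt5 and of 55.1%, 51.7% and 56.5% in Tekt1, Ccdc39 and Dnah7a. The whole windows of the 39 genes had a median GC content of 54.7% (38.3% to 74.3%), against 56.3% over all windows, and a median of 11 CpG dinucleotides, against 13.

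Several of these promoters carried an X-box-like element, the palindromic motif known to be bound by RFX transcription factors at ciliary genes. The motif was chosen after the sequences were seen. Its letters, GTTGCNNNGCAAC, were searched on both strands and were found in 7 of the 39 windows (17.9%, exact binomial 95% interval 7.54% to 33.5%) and in 55 of all 17492 windows (0.314%). The shorter GTTGCNA, which overlaps the long form in some windows, was found in 24 of the 39 windows (61.5%, 44.6% to 76.6%). Over all windows it was found in 2043 (11.7%). Tekt2 and Tekt4, which carry the long form, are not among the 24. Of the long matches, 6 are shown with 8 bases on each side, the motif in capitals.
Dnah7a, chr1:53706821-53706849, minus strand: gccagtttGTTGCTTAGCAACgaatcgac
Dnah7b, chr1:46066821-46066849, plus strand: gccagtttGTTGCTTAGCAACgaatcgac
Dnah7c, chr1:46425441-46425469, plus strand: tccagtttGTTGCTTAGCAACgaatcgac
Dnai2, chr11:114727378-114727406, plus strand: cggccaggGTTGCTAGGCAACtggtaaac
Tekt2, chr4:126325697-126325725, minus strand: agggggcgGTTGCTCGGCAACcagagccg
Tekt4, chr17:25471546-25471574, plus strand: gtgaccctGTTGCTCAGCAACaggaggca
Dnah7a, Dnah7b and Dnah7c are close copies on chromosome 1, and their sites share the same 13 motif letters. They are counted separately among the 7 long matches, although the intervals given treat the 39 windows as independent. The long motif began 24 to 69 bases before the transcription start in these 6 genes. In the Dnah7a window printed above it lay outside the called bases, 57 bases before the start. A short match lay outside the called bases in Tekt1 and Ccdc39 as well, and inside them in Tekt5, 235 bases before the start. A match is a description of letters and was not set against binding data.

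The whole lists differed in size, which sets how many calls a gene can have. They held 179133, 41655 and 27101 calls at 0.5, 1 and 2 U in RS, and 42178, 60077 and 65614 calls in M. The density over all protein-coding gene bodies was 60.2, 14.3 and 9.22 calls per Mb in RS and 11.3, 18.3 and 21.7 calls per Mb in M. The number of reads behind each list is unknown. Each call spans 140 bp and carries the authors' p-value, and between 65.4% and 69.5% of the calls of a list stand at its largest p, the minimum for a call. Counts over the flagellum genes were therefore divided by the number that the density over all protein-coding genes of the same list gives for the same length of DNA, a quotient called relative density below.

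Flagellum genes had fewer calls than their length gives in 5 of the 6 lists, whose intervals lie below 1, and more so in M than in RS. At 0.5 U, RS had 303 calls over the 44 genes, or 47.2 per Mb, and a relative density of 0.783 (95% Poisson interval 0.698 to 0.877). At 1 U RS had 55 calls and a relative density of 0.601 (0.453 to 0.782), and at 2 U it had 53 calls and 0.895 (0.670 to 1.17). M had 27 calls at 0.5 U and a relative density of 0.372 (0.245 to 0.542). It had 63 calls at 1 U and 0.535 (0.411 to 0.685), and 57 calls at 2 U and 0.408 (0.309 to 0.529). Every M value lay below every RS value, although at 1 U the intervals of the stages overlapped. The RS interval at 2 U includes 1, and the value there was 1.07 without dense bins (10 kb, over 20 calls in at least 1 list), 1.02 with overlapping calls merged and 1.01 relative to genes of the same length class.

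The log2 ratio of relative density, RS over M, was 1.06 (0.49 to 1.62) at 0.5 U, 0.17 (-0.35 to 0.69) at 1 U and 1.13 (0.59 to 1.66) at 2 U. The mean over the 3 amounts was 0.78 (0.47 to 1.10), a fold of 1.72. The interval at 1 U included 0. Relative to the 100 kb on each side of the genes the ratio at 0.5 U was 0.52 (-0.17 to 1.20), and with calls above the minimum alone the ratio at 2 U was 0.73 (-0.47 to 1.93). Since RS digests held more cells, RS at 1 U was also set against M at 0.5 U, which equalises MNase per cell and gave 0.68 (0.02 to 1.34). The like comparison of the 2 U digest of RS with the 1 U digest of M gave 0.74 (0.21 to 1.26). Within a stage, the counts do not settle whether relative density differed between the highest and the lowest amount of MNase. The log2 ratio of 2 U over 0.5 U was 0.19 (-0.23 to 0.61) in RS and 0.12 (-0.53 to 0.78) in M, both with intervals that include 0.

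**Figure D1:**
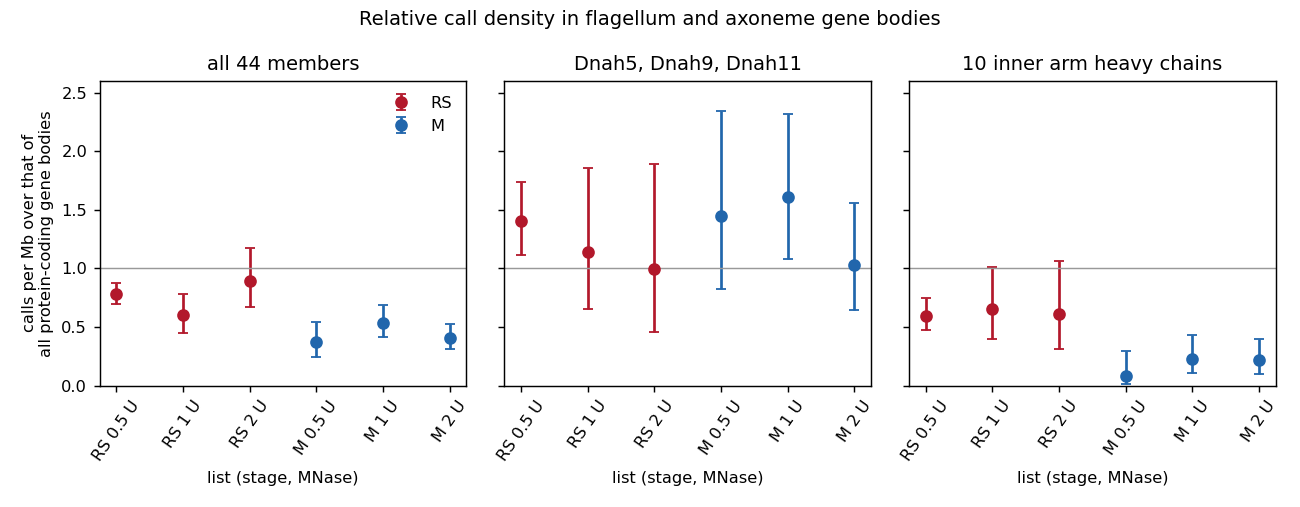
Calls per Mb over that of all protein-coding gene bodies (y axis) in each of the 6 lists (x axis, RS in red and M in blue), for all 44 genes, for Dnah5, Dnah9 and Dnah11, and for the 10 inner arm heavy chains; points are relative densities and bars are 95% Poisson intervals. All 44 genes lie between 0.601 and 0.895 in RS and between 0.372 and 0.535 in M, and the inner arm genes fall to 0.0827 in M at 0.5 U.

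Most of the genes had calls in RS, and fewer had them in M. At least 1 call was found in 36, 19 and 23 of the 44 genes at 0.5, 1 and 2 U in RS, where 47.6%, 22.2% and 16.8% of all protein-coding genes had one. In M it was 10, 16 and 22 genes, where 14.9%, 22.9% and 27.6% of all protein-coding genes had one. Any RS list held a call for 41 genes (55% of all protein-coding genes), and any M list for 29 genes (40.6%). Flagellum genes are long, with a median length of 86.7 kb against 17.2 kb over all protein-coding genes, and long genes collect more calls. Among the 21 flagellum genes of at least 100 kb, a call was found in 20, 15 and 16 in RS, beside 95.8%, 75.4% and 61.2% of the 2429 protein-coding genes of that length. In M it was found in 7, 11 and 13 of the 21, beside 62.5%, 76.4% and 81.7%. Over any RS list the shares were 100% of the 21 and 97% of all long genes, a measure near its ceiling, and over any M list they were 71.4% and 92.8%.

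Gene by gene, calls were expressed per 100000 calls of each list and averaged over the 3 amounts of a stage. The rate was higher in RS for 30 genes, beside 38.4% of all protein-coding genes, higher in M for 12, beside 25.5%, and 0 in both for 2. Among the 21 genes of at least 100 kb it was higher in RS for 17, beside 55% of all genes of that length, and higher in M for 4, beside 44.1%. Calls came from RS lists alone for 13 genes, beside 23.3% of all, and from M lists alone for Rsph1, beside 8.94%, while 28 had calls in both stages. Of the 21 long genes, 6 had calls in RS lists alone, beside 6.3% of all long genes, and 0 in M lists alone, beside 2.06%. The RS lists hold more calls in total than the M lists, which bears on such counts. Of the 34 genes with at least 3 calls, 19 were at least 2-fold higher in RS, a class that held 37.6% of the 8770 protein-coding genes with as many calls. The other direction held 4 genes, Cfap44, Dnah7b, Drc1 and Tekt1, against 22.4% of all. Each list has equal weight in the mean rate, so a call in a small list counts for more than 1 in RS at 0.5 U. Summed over a stage, calls of Cfap44 and Dnah7b were 0.266 and 0.193 times the expected number in RS and 0.216 and 0.189 times in M. Those of Drc1 and Tekt1 were 0.410 and 1.21 times in RS and 0.669 and 2.96 times in M. The rate was higher in RS at all 3 amounts in 7 of the 34 genes, against 7.02% of all such genes and 13.4% of those of at least 100 kb. These were Dnah5, Dnah7c, Dnah12, Dnah14, Spag17, Hydin and Ttc29, and 0 genes were higher in M at all 3 amounts (4.57% of all, 9.99% of the long ones).

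**Figure D2:**
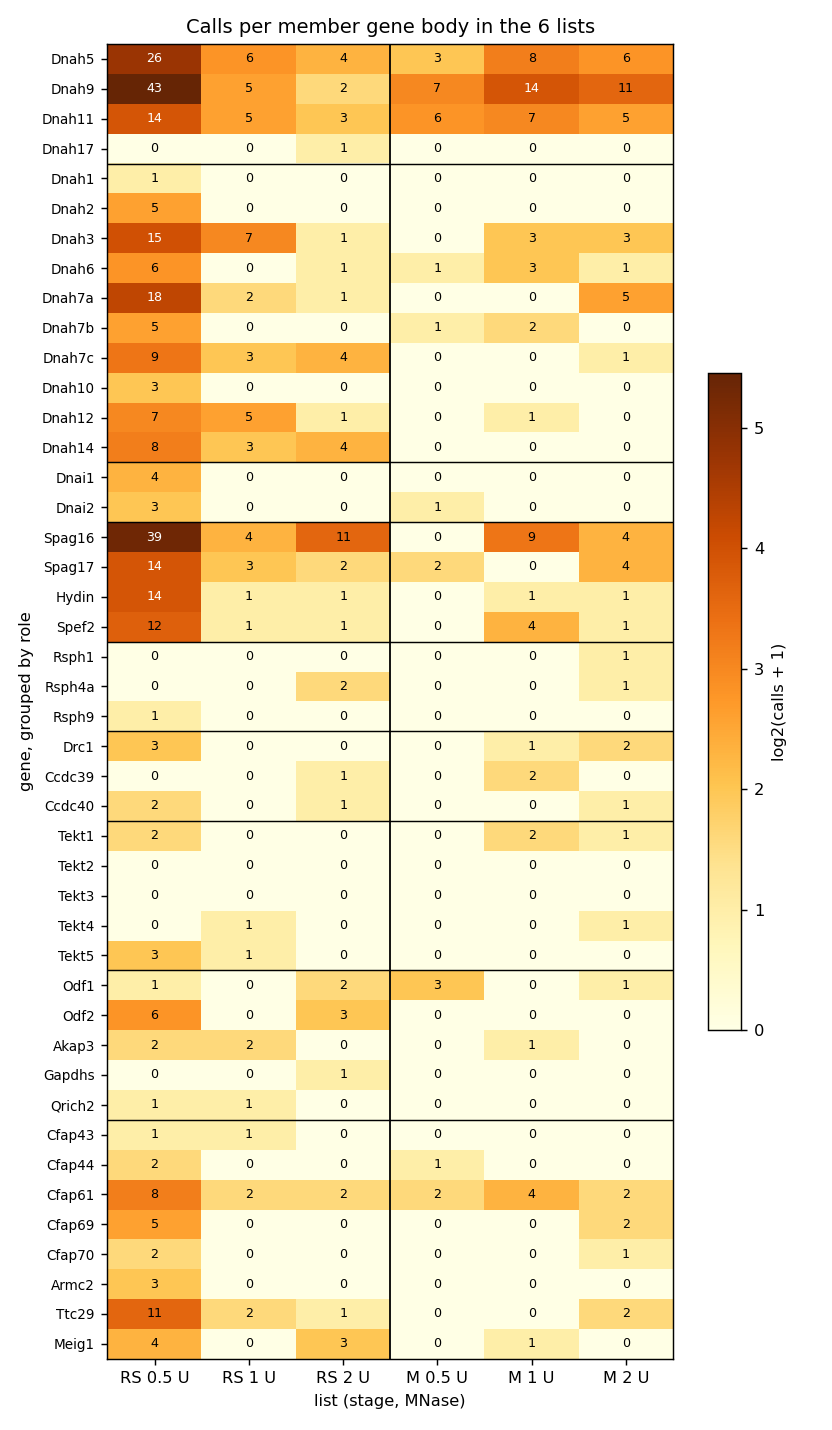
Calls in each of the 44 gene bodies (rows, grouped by role) in the 6 lists (columns, RS left of the black line and M right of it); the number in a cell is the count and the colour is log2(calls + 1). Dnah5, Dnah9 and Dnah11 have calls in every list, from 2 to 43, while most cells of the other genes in the M columns are 0.

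Summed over the 3 M lists, the outer arm heavy chains Dnah5, Dnah9 and Dnah11 carried at least as many calls as their length gives. In single M lists Dnah5 was below that number at 0.5 U (3 against 3.60) and at 2 U (6 against 6.94). Dnah11 was below it at 2 U (5 against 7.02). Dnah9 (chr11:65831324-66168581) held the most of any of the 44 genes, with 43, 5 and 2 calls at 0.5, 1 and 2 U in RS and 7, 14 and 11 calls in M. Its length gives 20.4, 4.84 and 3.13 calls in RS and 3.83, 6.22 and 7.38 in M, so the excess in RS was at 0.5 U, while all 3 M lists were above the expected number. Dnah5 (chr15:28154854-28472045) had 26, 6 and 4 calls in RS and 3, 8 and 6 in M, or 1.35 times the expected number in RS and 1.04 times in M. For Dnah11 (chr12:117877982-118199043) the counts were 14, 5 and 3 in RS and 6, 7 and 5 in M, or 0.814 and 1.08 times the expected number, with 3 of them also in the window of the neighbouring gene Cdca7l. These 3 genes, 317 to 337 kb long, had calls in all 6 lists, which only Cfap61 among the other members also had. Dnah17 (chr11:118021723-118130719), had 1 call in RS at 2 U and none in M, where its 109 kb give 9.29 and 5.70 calls. The other outer arm chain known from sperm, Dnah8, is not among the 44 genes and had 126 calls in RS and 16 in M.

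The outer arm group as a whole had relative densities of 1.26, 1.03 and 0.993 in RS and of 1.30, 1.45 and 0.926 in M. Its mean log2 ratio of RS over M was -0.14 (-0.66 to 0.38), with an interval that includes 0. Grouped after their values were seen, Dnah5, Dnah9 and Dnah11 had 1.40, 1.14 and 0.994 in RS and 1.44, 1.61 and 1.03 in M. Without these 3 genes, the other 41 had relative densities of 0.671, 0.503 and 0.877 in RS and of 0.179, 0.341 and 0.296 in M, and a mean log2 ratio of 1.32 (0.90 to 1.74).

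Inner arm heavy chains had the largest mean stage ratio of the role groups. The 10 genes had 77, 20 and 12 calls in RS, with relative densities of 0.597, 0.655 and 0.608. In M they had 2, 9 and 10 calls, with relative densities of 0.0827 (0.0100 to 0.299), 0.229 (0.105 to 0.436) and 0.215 (0.103 to 0.395). The mean log2 ratio of RS over M was 1.83 (1.02 to 2.64), a fold of 3.56, and all 3 amounts had intervals above 0. It exceeded that of the outer arm chains by 1.97 (1.01 to 2.94), a difference between groups of genes and not between replicates. The outer arm value comes from Dnah5, Dnah9 and Dnah11, since Dnah17 had 1 call in all. Dnah8, an outer arm chain outside the 44 genes, had 126 calls in RS and 16 in M, so the difference is not shown for outer arm chains in general. Set side by side within a list, outer arm genes were 2.10, 1.55 and 1.61 times as dense as inner arm genes in RS, with intervals that include 1 at 1 and 2 U. The same quotients were 12.7, 6.01 and 4.16 in M. Of the 9 inner arm genes with at least 3 calls, 7 had a mean rate at least 2-fold higher in RS. In 1, Dnah7b, the mean rate was at least 2-fold higher in M, from 5 calls in RS and 3 in M.

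Dnah14 (chr1:181576593-181814932) had 8, 3 and 4 calls in RS and none in M, where its 238 kb give 12.3 calls. Dnah12 (chr14:26691554-26892719) had 7, 5 and 1 calls in RS and 0, 1 and 0 in M. Dnah3 (chr7:119921332-120095297), the inner arm gene with the most calls, had 15, 7 and 1 in RS and 0, 3 and 3 in M. It was the 1 inner arm gene above its expected number in RS, at 1.56 times, against 0.664 times in M. Dnah6 (chr6:73017603-73222227) had 6, 0 and 1 calls in RS and 1, 3 and 1 in M, or 0.405 and 0.471 times its expected numbers. Dnah1, Dnah2 and Dnah10 had calls in RS at 0.5 U alone, with 1, 5 and 3.

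Dnah7a, Dnah7b and Dnah7c are paralogs of similar length, and how reads that match more than 1 of them were treated is not given in the sources used here, so their separate counts are uncertain. Dnah7a (chr1:53396995-53707301) had 18, 2 and 1 calls in RS and 0, 0 and 5 in M. Dnah7b (chr1:46066071-46373551) had 5, 0 and 0 calls in RS and 1, 2 and 0 in M, or 0.193 and 0.189 times the expected number. Dnah7c (chr1:46425428-46807477) had 9, 3 and 4 calls in RS and 0, 0 and 1 in M, or 0.498 and 0.0507 times the expected number. Relative to RS, M was lower in Dnah7c than in its neighbour Dnah7b, from 1 and 3 M calls. With overlapping calls merged, the log2 ratio of mean rates, RS over M, was 1.93 (-0.22 to 4.09) in Dnah7c. That interval includes 0.

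**Figure D3:**
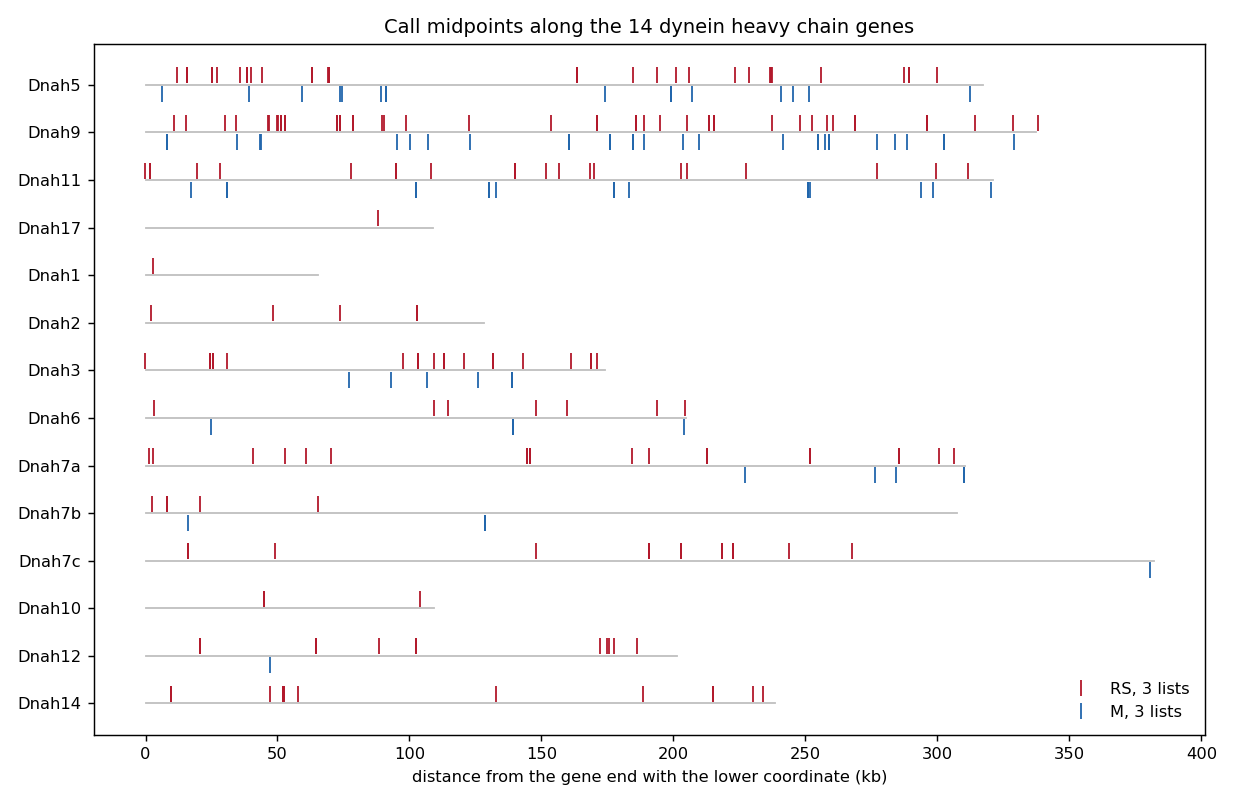
Midpoints of the calls along the 14 dynein heavy chain genes (grey lines, x axis in kb from the gene end with the lower coordinate), with calls of the 3 RS lists above the line in red and those of the 3 M lists below it in blue. Dnah5, Dnah9 and Dnah11 carry marks on both sides along their length, while Dnah14 has RS marks alone and Dnah12 and Dnah7c have 1 M mark each.

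The 2 dynein intermediate chains, which anchor outer arm motors, had few calls. Dnai1 had 4 calls in RS at 0.5 U and none in M. Dnai2 had 3 calls in RS at 0.5 U and 1 call in M at 0.5 U. Their shared 7 calls at 0.5 U in RS gave a relative density of 1.07 with an interval of 0.428 to 2.20, too wide to place them above or below other genes.

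Central apparatus genes were sparse in M at 0.5 U and near the background in RS at 2 U. The 4 genes had 79, 9 and 15 calls in RS, with relative densities of 0.782, 0.376 and 0.969. M had 2, 14 and 10 calls, with relative densities of 0.106, 0.455 and 0.274. The mean log2 ratio of RS over M was 1.38 (0.56 to 2.19), although at 1 U it was -0.25 (-1.43 to 0.93). It exceeded that of the outer arm chains, whose value comes from Dnah5, Dnah9 and Dnah11, by 1.51 (0.55 to 2.48).

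Spag16 (chr1:69826872-70725132), which encodes a central apparatus protein that sperm motility needs, is the longest of the 44 genes at 898 kb. It had 39, 4 and 11 calls in RS and 0, 9 and 4 in M, where 54.2 and 10.2 calls were expected at 0.5 U. Per call of the list, RS was above M at 0.5 and 2 U and below it at 1 U. Spag17 (chr3:99885417-100143322), its partner in the central apparatus, had 14, 3 and 2 calls in RS and 2, 0 and 4 in M. Hydin (chr8:110266968-110610253), whose loss causes hydrocephalus in mice, had 14, 1 and 1 calls in RS and 0, 1 and 1 in M, or 0.554 and 0.113 times the expected number. Spef2 (chr15:9578193-9748868), needed for the sperm tail, had 12, 1 and 1 calls in RS and 0, 4 and 1 in M, and was near its expected number in RS at 0.969 times.

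Radial spoke, nexin link, ruler and tektin genes are shorter and had too few calls for a comparison of stages. Rsph4a had 2 calls in RS at 2 U and 1 in M at 2 U, Rsph9 had 1 call in RS at 0.5 U, and Rsph1 had 1 call in M at 2 U. Ccdc39 had 1 call in RS at 2 U and 2 in M at 1 U, and both M calls are those of its promoter. Its partner Ccdc40 had 2, 0 and 1 calls in RS and 0, 0 and 1 in M. Drc1, of the nexin link, had 3, 0 and 0 calls in RS and 0, 1 and 2 in M. Among tektins, Tekt1 had 2, 0 and 0 calls in RS and 0, 2 and 1 in M, all 3 M calls in its promoter, and Tekt5 had 3, 1 and 0 calls in RS and none in M. Tekt4 had 1 call in RS at 1 U and 1 in M at 2 U. Tekt2 and Tekt3 had no call in any list. The 33.3 kb of Tekt3 give 2.95 calls in RS and 1.81 in M, and the 3.57 kb of Tekt2 give 0.466 and 0.286.

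Genes of the dense fibres and the sheath had relative densities above 1 in RS, from few calls. The 5 genes had 10, 3 and 6 calls in RS, with relative densities of 1.37 (0.656 to 2.51), 1.73 (0.357 to 5.07) and 5.36 (1.97 to 11.7). The 6 calls at 2 U lie at 3 positions once overlapping calls are merged, which gave 4.26 (0.878 to 12.4). Separately, and without merging, Odf2 was left out after its values were seen. The RS values were then 0.866 (0.236 to 2.22) at 0.5 U, 2.74 (0.566 to 8.02) at 1 U and 4.24 (0.875 to 12.4) at 2 U. M had 3, 1 and 1 calls, with relative densities of 2.19 (0.451 to 6.39), 0.449 and 0.379, the last 2 from 1 call each. The mean log2 ratio of RS over M was 1.37 (-0.02 to 2.75). Odf1 (chr15:38219203-38226735), a main protein of the dense fibres, had 1, 0 and 2 calls in RS and 3, 0 and 1 in M, and with 0.734 calls per kb of its window was the densest of the 44 genes. Odf2 (chr2:29889014-29931746), which also makes a centrosomal protein, had 6, 0 and 3 calls in RS and none in M. Akap3, an anchoring protein of the sheath, had 2, 2 and 0 calls in RS and 0, 1 and 0 in M. Qrich2 had 1, 1 and 0 calls in RS, the sperm glycolytic enzyme gene Gapdhs had 1 at 2 U, and both had none in M. The Gapdhs call also lies in the windows of the neighbouring genes Sbsn or Tmem147.

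Among the assembly and Cfap genes, relative densities were 0.641, 0.376 and 0.698 in RS and 0.285, 0.293 and 0.345 in M. The mean log2 ratio of RS over M was 0.79 (-0.14 to 1.71). Cfap61 (chr2:145934757-146215035) had 8, 2 and 2 calls in RS and 2, 4 and 2 in M. In M, 5 of its 8 calls lay within 237 bases past the transcription start, in a stretch that the window of the neighbouring gene Crnkl1 also covers. Ttc29 (chr8:78213282-78394326), a gene needed for the sperm tail, had 11, 2 and 1 calls in RS and 0, 0 and 2 in M, or 0.914 and 0.213 times the expected number. Meig1 (chr2:3409043-3422648), which spermatids need to build the flagellum, had 4, 0 and 3 calls in RS and 0, 1 and 0 in M. With 13.6 kb it had 5.36 times its expected number in RS and 1.25 times in M. The 7 RS calls lie at 2 positions once overlapping calls are merged, and the M value rests on 1 call. Cfap69 had 5, 0 and 0 calls in RS and 0, 0 and 2 in M. Cfap43, Cfap44, Cfap70 and Armc2 had 2 or 3 calls each in RS, and none or 1 in M.

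Values differed between classes of gene length, with few calls in the short class. The 6 genes under 20 kb had 2.16 times (1.21 to 3.56) the number of calls given by all protein-coding genes of that length in RS and 2.00 times (0.916 to 3.80) in M. Of the RS calls 7 were in Meig1, and without Meig1 the RS value was 1.43 times (0.617 to 2.82). With overlapping calls merged to 1 position it was 1.68 times (0.676 to 3.46), and RS at 1 U held no call in these genes. Without Odf1 the M value was 1.26 times (0.410 to 2.95). The 17 genes of 20 to 100 kb had 0.672 times in RS and 0.355 times in M, and the 21 genes of at least 100 kb had 0.754 and 0.429 times. Density in M was thus low in the longer classes as a whole, but not in each long gene. Dnah5, Dnah9 and Dnah11 had 1.04, 1.84 and 1.08 times the M calls given by all protein-coding genes. The short genes as a group, which includes Odf1 and Meig1, had values above 1. Their intervals include 1 in M, and in RS once Meig1 is left out. Without Odf1 their M interval also covers the 0.429 of the long class. Where the classes were bounded at 10 and 50 kb instead, the middle class had 1.15 times (0.820 to 1.56) its background in RS. Within the genes of at least 100 kb, the median flagellum gene had 60.0 calls per Mb in RS and 10.9 in M, against 74.9 and 42.3 calls per Mb for the median protein-coding gene of that length.

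**Figure D4:**
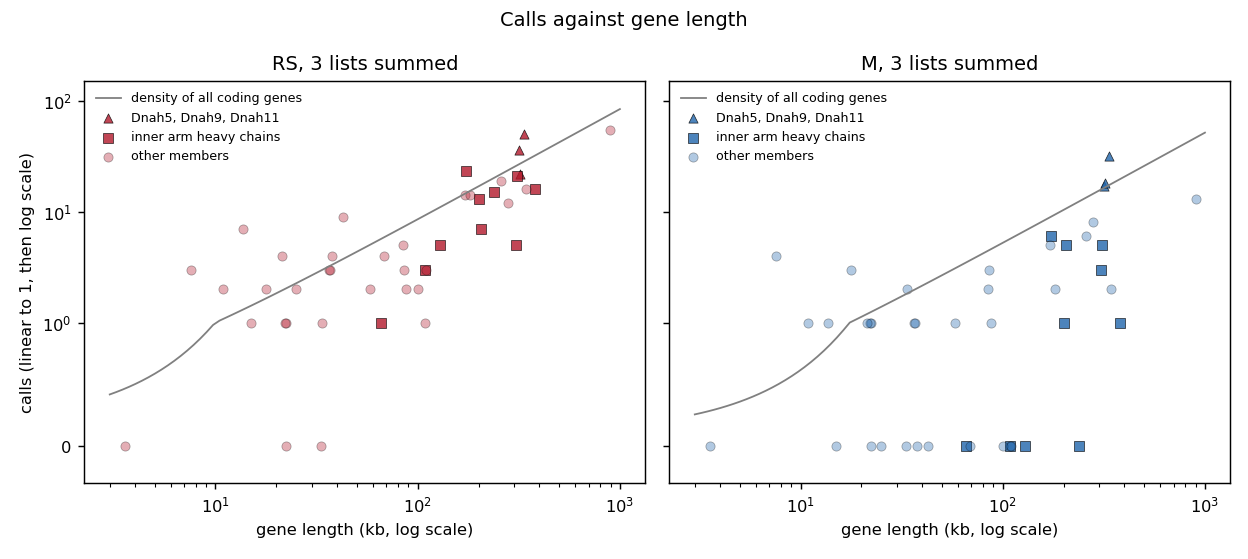
Calls per gene (y axis, linear to 1 and logarithmic above) against gene length in kb (x axis, log scale), summed over the 3 RS lists (left) and the 3 M lists (right); the line is the number given by the density of all protein-coding genes. In M, Dnah5, Dnah9 and Dnah11 (triangles) lie on or above the line, while the 10 inner arm genes (squares), between 65.5 and 382 kb long, all lie below it.

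The DNA around the flagellum genes was also low in calls when set against protein-coding gene bodies. Flanks of other protein-coding genes were not counted, so it is not known whether low flanks are particular to these genes. Flanks can also hold other genes, as those of Dnah7b and Dnah7c hold parts of each other. In the 100 kb on each side the density relative to all protein-coding gene bodies was 0.853, 0.694 and 0.850 in RS and 0.584, 0.657 and 0.737 in M. The gene bodies were 0.919 (0.794 to 1.06), 0.866 (0.618 to 1.21) and 1.05 (0.736 to 1.51) times as dense as these flanks in RS. In M they were 0.638 (0.404 to 1.01), 0.814 (0.596 to 1.11) and 0.554 (0.407 to 0.754) times as dense. The flanks themselves were higher in RS than in M, by a mean log2 ratio of 0.28, and the mean log2 ratio of gene bodies relative to flanks was 0.51 (0.12 to 0.90). Without Dnah5, Dnah9 and Dnah11, bodies were 0.848, 0.692 and 1.04 times as dense as flanks in RS and 0.307, 0.523 and 0.403 times in M.

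Positions in the flagellum genes were seldom called again in another list. A midpoint within 73 bp was found in another list for 15 of the 558 calls (2.69%, exact binomial 95% interval 1.51% to 4.40%). Over all protein-coding gene bodies the share was 13.9%, and 6.52% once the dense bins were left out, in which no call of the flagellum genes lay. No adjustment was made for the lower call density of the flagellum genes, on which such a share also depends. The 15 calls belong to 5 places. The Cfap61 start (chr2:145934834-145935021) was called in M at 0.5 and 1 U, and the Tekt1 promoter (chr11:72361957-72362123) in M at 1 and 2 U. A place in Spag16 (chr1:70670127-70670326) was called in RS at 0.5 and 1 U. Places in Spag17 (chr3:100036997-100037141) and Dnah9 (chr11:66020122-66020281) were called in both stages, Spag17 in the 1 U list of RS and the 2 U list of M, and Dnah9 in the 0.5 U list of RS and the 1 U list of M. The 2 places called in M alone were thus both at gene starts.

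Most calls in the flagellum genes stood at the minimum. At the largest p of the list stood 77.9%, 83.6% and 83.0% of them in RS and 81.5%, 85.7% and 77.2% in M. Over protein-coding gene bodies outside the dense bins the shares were 74.2%, 78.7% and 79.9% in RS and 73.2%, 76.6% and 75.7% in M, lower in 6 of 6 lists but within the interval of the flagellum genes in each. The lowest of the authors' p-values in RS was 4.05e-08, in Dnah7c at 1 U. The lowest in M was 2.59e-09, at the Cfap61 start at 1 U. The largest p of a list ran from 4.61e-06 in RS at 2 U to 8.70e-05 in RS at 0.5 U. What a call needed thus differed between lists, and p-values were not compared between stages. Along the 19 genes of at least 100 kb whose strand the promoter table gives, the first, middle and last stretches of equal length held 33.4%, 30.0% and 36.5% of RS calls. In M they held 44.1% (34.9% to 53.5%), 24.6% (17.1% to 33.4%) and 31.4% (23.1% to 40.5%) of 118 calls, against 33.0%, 33.3% and 33.7% over 1866 long protein-coding genes. The 5 clustered Cfap61 calls are among the 52 M calls of the first stretch.

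Other genes of the same organelle also had a mean ratio above 0, less so without Dnah8. A list of 64 further flagellum genes held 415 calls, 329 in RS and 86 in M, and had relative densities of 0.986, 1.26 and 1.06 in RS and 0.235, 0.521 and 0.488 in M. Its mean log2 ratio of RS over M was 1.47 (1.05 to 1.88), but Dnah8 alone, which like Dnah17 is an outer arm heavy chain known from sperm, held 78, 25 and 23 calls in RS and 2, 7 and 7 in M. The 44 genes differed from this list by -0.68 (-1.20 to -0.16). Without Dnah8 the relative densities were 0.688, 0.857 and 0.431 in RS and 0.201, 0.449 and 0.431 in M. The ratio at 2 U was then 0.02 (-0.87 to 0.91), and the mean ratio was 0.88 (0.38 to 1.38), and that of the 44 genes differed from it by -0.10 (-0.69 to 0.49). Armc4, needed to dock outer arms, had 21, 2 and 1 calls in RS and 3, 3 and 5 in M. Of these 64 genes the rate was higher in RS for 33, beside 38.4% of all protein-coding genes, higher in M for 15, beside 25.5%, and 0 in both for 16.

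Gene lists of other germ cell functions gave intervals that overlapped that of the flagellum genes. The mean log2 ratio of RS over M was 0.57 (-0.18 to 1.32) for 30 acrosome genes and 0.85 (0.33 to 1.37) for 42 meiosis genes. Their relative densities were low as well, at 0.639, 0.572 and 0.643 in RS and 0.197, 0.647 and 0.511 in M for acrosome genes, and at 0.833, 0.836 and 0.535 in RS and 0.473, 0.404 and 0.321 in M for meiosis genes. The 44 flagellum genes differed from them by 0.22 (-0.60 to 1.03) and by -0.07 (-0.68 to 0.54), both with intervals that include 0.

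**Figure D5:**
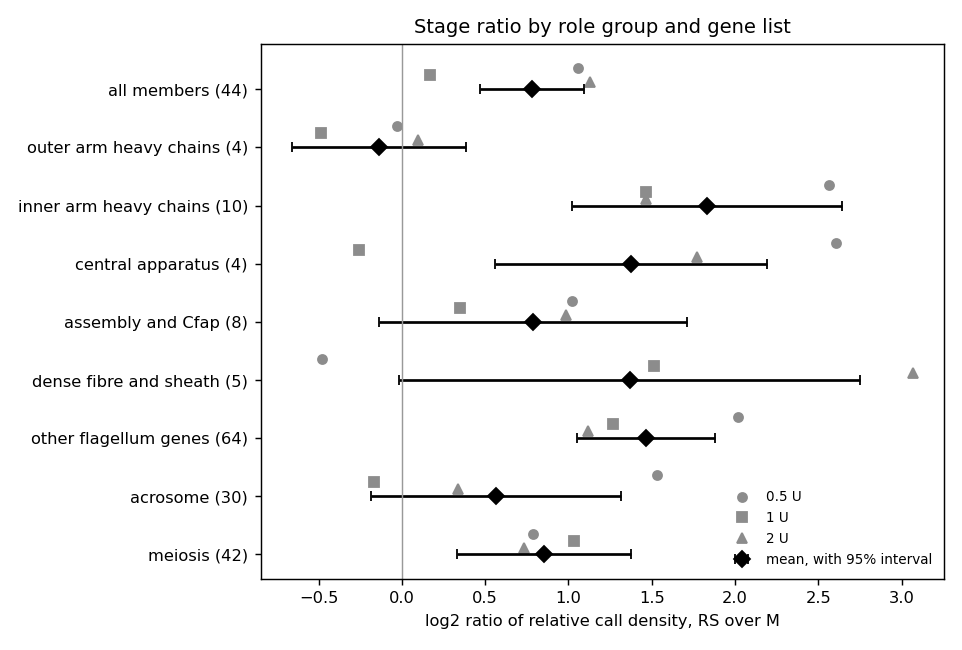
Log2 ratio of relative call density, RS over M (x axis), for role groups of the flagellum genes and for 3 other gene lists (rows, number of genes in brackets); grey symbols are the 3 MNase amounts, and black diamonds with bars are their means with 95% intervals from the counts. The mean is -0.14 for outer arm heavy chains and 1.83 for inner arm heavy chains, and the intervals of acrosome and meiosis genes overlap that of all 44 genes.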

How the data were processed

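The lists give intervals with a p-value for each call, deposited by the authors, and no read counts. Reads were aligned with STAR 2.5.2a to GRCm38/mm10 per the submitters' processing notes, and each list was made from both samples of a group per the series' design text. The sources used here do not give the nucleosome caller, its threshold or the treatment of reads with several matches. Python 3.11.15 with numpy 2.4.6, pandas 2.3.3 and scipy 1.17.1 was used. Calls were counted by midpoint (start + 70), each overlapping call included. Genes, their ends and promoter sequences came from RefSeq tables of GRCm38.p6, which match the build of the calls but give no exons, so exons and introns were not separated. Dnai1 and Dnai2 were matched by synonym, and 1 of 65 listed further flagellum genes was not matched. Of the 44 genes, 22 have a window that overlaps another protein-coding gene, with 9 calls in the overlaps. Log2 ratios had 0.5 added to observed and expected calls. The counting was tested on simulated lists. The members and all gene lists were chosen with earlier results of these data known. Genes were described with 6 values if they had at least 10 calls or ranked in the top 2 by calls per kb in their role group, and genes without calls and the 3 further flagellum genes with the most calls were named. One of these 3 genes and 1 motif sequence are not reported here. Further names, such as Odf2, were picked with their values in view.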

Additional observations from a re-analysis of the deposited data

How the results depend on the processing

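No paired analysis was possible because each deposited list pools both replicates of a group. Under 17 alternatives the mean log2 ratio of RS over M lay between 0.51 and 1.32, with each interval above 0. Of 197 alternative values, 179 lay inside the 95% interval of the main value and 17 lay outside it. The other 1 was on the other side of its null, with the main interval excluding that null. The 179 comprise 134 for values reported here and 45 for log2 rates of single genes, whose main values are not given. The single-gene intervals are wide. Leaving out dense bins could not move the single-gene rates, because no call of the flagellum genes lies in those bins. Values whose reported interval includes the null also changed side: RS at 2 U was 1.07 without dense bins, 1.02 with overlaps merged, 1.09 with both, 1.05 relative to the flanks and 1.01 by length class, while 2 U over 0.5 U was -0.18 in RS with calls above the minimum and -0.21 in M relative to the flanks. Intervals came to include the null for RS over M at 0.5 U relative to the flanks (0.52) and at 2 U with calls above the minimum (0.73), and for RS at 1 U with overlaps merged and dense bins left out (0.744). The same held for short genes in RS with overlaps merged, without Meig1 or with classes bounded at 10 and 50 kb, and for middle genes with those bounds. Leaving out Meig1 or Odf1, merging in the short class, and merging with dense bins left out were chosen after seeing the data. With calls above the minimum p alone, relative density was 0.611, 0.355 and 0.528 at 0.5, 1 and 2 U in RS and 0.211 and 0.264 at 0.5 and 1 U in M. Relative to the 100 kb on each side it was 0.919 and 0.866 at 0.5 and 1 U in RS and 0.638, 0.814 and 0.554 in M, with intervals that include 1 except in M at 2 U. Without Dnah5, Dnah9 and Dnah11, a choice made after seeing the data, it was 0.671 at 0.5 U in RS and 0.179, 0.341 and 0.296 in M, and the log2 ratio of RS over M was 1.86 at 0.5 U and 1.32 on average. With length classes bounded at 10 and 50 kb, short genes had 4.17 times the expected calls in M and middle genes reversed to 1.15 times in RS, classes that then hold other genes. The cause of the other shifts was not tested. Most calls stand at the minimum p, and the number of reads behind the lists is unknown.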
